A study of Mus musculus with 8 samples.

Results

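Slc2a2, Gckr, Pfkl, Pfkfb1, Pfkfb3, Pklr, Khk and Tkfc are among the genes that serve or regulate glucose and fructose entry and glycolysis in liver cells. These 8 genes were followed in the livers of db/db mice given control or AF1 peptide. They were chosen by name, by a rule that uses no measured value, but with earlier results of these data known. All 8 of them were among the 21532 genes of the deposited table, and all 8 passed the filter on low values. Liver RNA was sequenced from 8 male mice, 4 given control and 4 given AF1 peptide, with 1 library per mouse. All of the mice were db/db, which means that they carry a leptin receptor mutation in every tissue and become obese and diabetic. No lean group was sequenced. AF1 peptide is a synthetic peptide made from a shortened piece of the estrogen receptor α. It is joined to a TAT sequence, which carries proteins into cells. Injections of 5 mg/kg body weight behind the eye began at 8 weeks of age and were given 2 times per week for 5 weeks in both groups. What the control injection contained, and whether the mice had been fed or fasted when the livers were taken, is not given in the sources used here.

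In the liver, glucose crosses the hepatocyte membrane through GLUT2 and is then phosphorylated, a step that a nuclear regulatory protein restrains when fructose 1-phosphate is scarce. Phosphofructokinase and pyruvate kinase are the controlled steps further down, and the bifunctional PFK-2/FBPase-2 enzymes make and break fructose 2,6-bisphosphate, which drives phosphofructokinase and restrains fructose 1,6-bisphosphatase. Fructose enters below that control, through ketohexokinase and later triokinase. Many of these genes are known to be transcribed more after a carbohydrate meal, through insulin and through the glucose-sensing factor ChREBP, which binds with its partner Mlx to paired E-box-like letters.

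Promoter letters are shown for 3 of the genes because they hold the E-box letters that this family of factors reads. The sequences come from RefSeq windows on GRCm38.p6, which is not the mm39 build behind the counts. All 8 genes were matched, with 13 windows in all, each running from 250 bases before to 50 after a start. Capitals mark the matched letters.

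Pklr, second start, chr3:89136373-89136622, plus strand, the bases before the start: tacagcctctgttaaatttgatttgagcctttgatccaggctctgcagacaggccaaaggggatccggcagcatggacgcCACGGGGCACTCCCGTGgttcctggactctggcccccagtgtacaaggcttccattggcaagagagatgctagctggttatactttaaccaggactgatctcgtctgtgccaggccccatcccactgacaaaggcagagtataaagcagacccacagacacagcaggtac
Khk, first start, chr5:30921476-30921505, plus strand: agcgttccccgtCACGTGacaccgttaatc
Pfkfb3, second start, chr2:11502126-11502155, minus strand: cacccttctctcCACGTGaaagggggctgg

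In Pklr, which encodes liver pyruvate kinase, the marked letters lie at -170 to -154 from the start. In Khk, the ketohexokinase gene, CACGTG lies at -71 to -66, and in Pfkfb3 it lies at -53 to -48. In all, 17 patterns were searched on both strands, and the ones shown were chosen after the sequences had been seen. The letters of the Pklr match fit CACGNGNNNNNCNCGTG, which 15 of 32851 mouse windows (0.0457%) hold. That pattern was narrowed after the match had been seen. The wider form first searched, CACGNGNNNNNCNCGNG, is held by 120 windows (0.365%), and the widest, CANNNGNNNNNCNNNTG, by 2426 windows (7.38%), including a window of Pfkfb3. CACGTG alone is held by 7.15% of windows. Patterns with no match in the 13 windows were CACGTGNNNNNCACGTG (0 of all windows), GTTAATNATTAA (0.0609%), TGTTTAC (3.65%), CAAAGTCCA (0.475%), TGACGTCA (1.79%), TGACGTAA (0.499%) and TGACGCAA (0.490%). The others were common or short. GTTAAT was found for Gckr, Khk and Pfkfb1 (7.10% of all windows) and TGNACTTTG for Tkfc (1.41%), while CCAAT (37.4%), GGGCGG (35.7%), CACGGG (10.1%) and CANNTG, which also takes in CACGTG (72.3%), each matched 4 or more of the windows. A match is a string of letters and was not tested as a binding site.

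The libraries held 23031880 to 45117528 reads. The hepatocyte markers fixed for the check were all 8 listed, with summed normalized counts of 1918827 to 2603802 per mouse, and 0 of 8 pancreas and 1 of 5 muscle markers were listed. Replicate 1 of the AF1 peptide group stood apart. It had the lowest normalized count of the 8 mice in 23.4% of the 15989 genes tested and the highest in 25.9%, and its macrophage marker sum was 2279 against 4729 to 5684 in the other 7 mice. Mitochondrial reads were 20.8% of its library, and between 22.4 and 37.8% of the other 7. This mouse was also the lowest of the 8 in its hepatocyte, stellate, cholangiocyte, lymphocyte and red cell marker sums, but not in its endothelial sum. By single markers, it was the lowest in 3 of 8 hepatocyte markers and the highest in the other 5. It was the lowest in 7 of 8 macrophage, 3 of 8 endothelial, 5 of 8 stellate and 1 of 5 tested cholangiocyte markers. The same held for 4 of 6 tested lymphocyte and 2 of 5 tested red cell markers. Its adipocyte sum was 254 against 3646 to 4792, over Cidec, Cfd and Retn only, without the listed Adipoq, Plin1 and Lep. Whether that sum reflects fat cells was not tested. The differences of the named genes are therefore also given without this mouse, where 10.1% of all tested genes have an unadjusted limma p under 0.05, 5.93% have that and a change of over 1.3-fold, and 9.16% have groups without overlap. In bulk liver, fewer cells of a type and less RNA per cell cannot be told apart.

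Of the 8 genes, none passed the call used here (limma, unadjusted p under 0.05 and a change of over 1.3-fold), against 3.69% of all genes tested. With p alone, 1 of 8 passed, against 6.19% of all genes tested. No gene had groups without overlap, against 3.90%. No gene of the 8 had a Benjamini-Hochberg adjusted p under 0.05 with limma, edgeR or DESeq2. The log2 fold change was negative for 6 of 8, and its median was -0.17, against -0.01 over all tested genes. Without AF1 peptide replicate 1 the median was -0.06.

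Slc2a2 encodes GLUT2, the main glucose carrier of the hepatocyte membrane, and had the smallest p of the 8. Its normalized counts were 2544, 2996, 2193 and 2712 in control mice and 2062, 2336, 2090 and 2234 in AF1 peptide-treated mice. All 4 treated mice lay below the control median, and 2 of them lay below every control mouse, but the lowest control mouse fell within the treated range. Control mice averaged 2611 ± 335 and treated mice 2181 ± 128 (mean ± SD, n = 4 each). On the log2(normalized count + 1) scale, on which all fold changes here are given, the difference was -0.25 (SE 0.11, 95% interval -0.50 to -0.0100), with a limma p = 0.0428, a Benjamini-Hochberg adjusted p = 0.763 and, by a two-sided exact permutation test of the same 8 values, p = 0.0857. The smallest p that this exact test can give with 4 against 4 mice is 0.0286. The limma p did not hold up when single mice were left out, since it lay above 0.05 for 6 of the 8, AF1 peptide replicate 1 and control replicate 2 among them. The difference was then -0.18 without control replicate 2, -0.23 without AF1 peptide replicate 1 and -0.33 without control replicate 3.

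Gckr encodes the nuclear regulatory protein of glucose phosphorylation in hepatocytes. Its counts were 11628, 9004, 12409 and 9052 in control and 13217, 11691, 11872 and 10779 in treated mice. All 4 treated mice were above the control median, yet the 2 higher control mice were inside the treated range. The difference of 0.19 (SE 0.14, 95% interval -0.12 to 0.49) did not pass the test (limma p = 0.204, Benjamini-Hochberg adjusted p = 0.797, exact permutation p = 0.257). AF1 peptide replicate 1 was the highest of the 8 mice, and without it the difference was 0.14 (95% interval -0.16 to 0.43).

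Pfkl, the liver subunit of phosphofructokinase, varied least between mice. Its counts were 1071, 1032, 993 and 934 in control and 884, 928, 969 and 966 in treated mice. All treated mice lay below the control median, and the lowest control mouse lay among them. The difference was -0.10 (SE 0.09, 95% interval -0.30 to 0.09, limma p = 0.255, Benjamini-Hochberg adjusted p = 0.821, exact permutation p = 0.114), so a fall to 0.814-fold or a rise to 1.06-fold is within the interval. Without AF1 peptide replicate 1 it was -0.08.

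Pfkfb1 encodes the liver form of PFK-2/FBPase-2. It was measured at 1256, 873, 1118 and 1141 in control mice and at 1063, 1527, 1352 and 1312 in treated mice. Treated replicates 2 to 4 were above every control mouse, and replicate 1 was below 3 of the 4. With all mice the difference was 0.26 (SE 0.14, 95% interval -0.05 to 0.57, limma p = 0.0932, Benjamini-Hochberg adjusted p = 0.763, exact permutation p = 0.171). Without replicate 1 it was 0.36 (95% interval 0.08 to 0.63), past an unadjusted p of 0.05 with limma but with a Benjamini-Hochberg adjusted p = 0.473, and the remaining 3 treated mice did not overlap with control, as held for 9.16% of all tested genes there.

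Pfkfb3 encodes the form with the strongest kinase activity, known from dividing cells and from immune and vessel cells, and was the lowest of the 8 genes. Counts were 153, 271, 156 and 163 in control and 133, 157, 177 and 168 in treated mice. Control replicate 2 alone stood above the rest, and the other 7 mice overlapped. The difference was -0.19 (SE 0.19, limma p = 0.349, Benjamini-Hochberg adjusted p = 0.849, exact permutation p = 0.571) and became 0.0038 without control replicate 2, or -0.11 without AF1 peptide replicate 1. The macrophage and endothelial marker sums of control replicate 2 were 5025 and 6076, within those of the other control mice (4729 to 5684 and 6097 to 6934) or just below, and its stellate and cholangiocyte sums were the highest of the control mice (8006 against 5294 to 6503, and 1799 against 1193 to 1467). The part of these sums in Pfkfb3 was not tested. The lowest library held 86 reads of Pfkfb3, which gives a counting error of 10.8%.

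Pklr, which makes pyruvate from phosphoenolpyruvate, was level in 7 mice and low in 1. Control mice had 17627, 18704, 18466 and 17124, and treated mice had 7631, 17930, 19958 and 18213. AF1 peptide replicate 1 was at 42.4% of the control mean, and the other treated mice lay within or above the control range. The difference was -0.27 (SE 0.27, 95% interval -0.86 to 0.33, limma p = 0.341, Benjamini-Hochberg adjusted p = 0.849, exact permutation p = 0.83). Without that mouse it was 0.06 (95% interval -0.18 to 0.30). The SD of log2 values was 0.45 over 8 mice and 0.07 without it.

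Khk encodes ketohexokinase, the first enzyme of fructose breakdown. Its counts were 22318, 24155, 21738 and 21770 in control and 17380, 19472, 20819 and 23388 in treated mice. Treated replicates 1 to 3 were below every control mouse, and replicate 4 was above 3 of them. The difference was -0.16 (SE 0.13, 95% interval -0.45 to 0.13, limma p = 0.253, Benjamini-Hochberg adjusted p = 0.820, exact permutation p = 0.200), and -0.09 without replicate 1.

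Tkfc encodes triokinase, which phosphorylates the glyceraldehyde that fructose breakdown releases. Control mice had 26682, 35383, 29640 and 24131, and treated mice had 14085, 26964, 26702 and 30488. Only AF1 peptide replicate 1 lay outside the control range, at 48.6% of the control mean. The difference was -0.28 (SE 0.24, limma p = 0.266, Benjamini-Hochberg adjusted p = 0.825, exact permutation p = 0.486) and -0.03 (95% interval -0.36 to 0.30) without it.

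**Figure D1:**
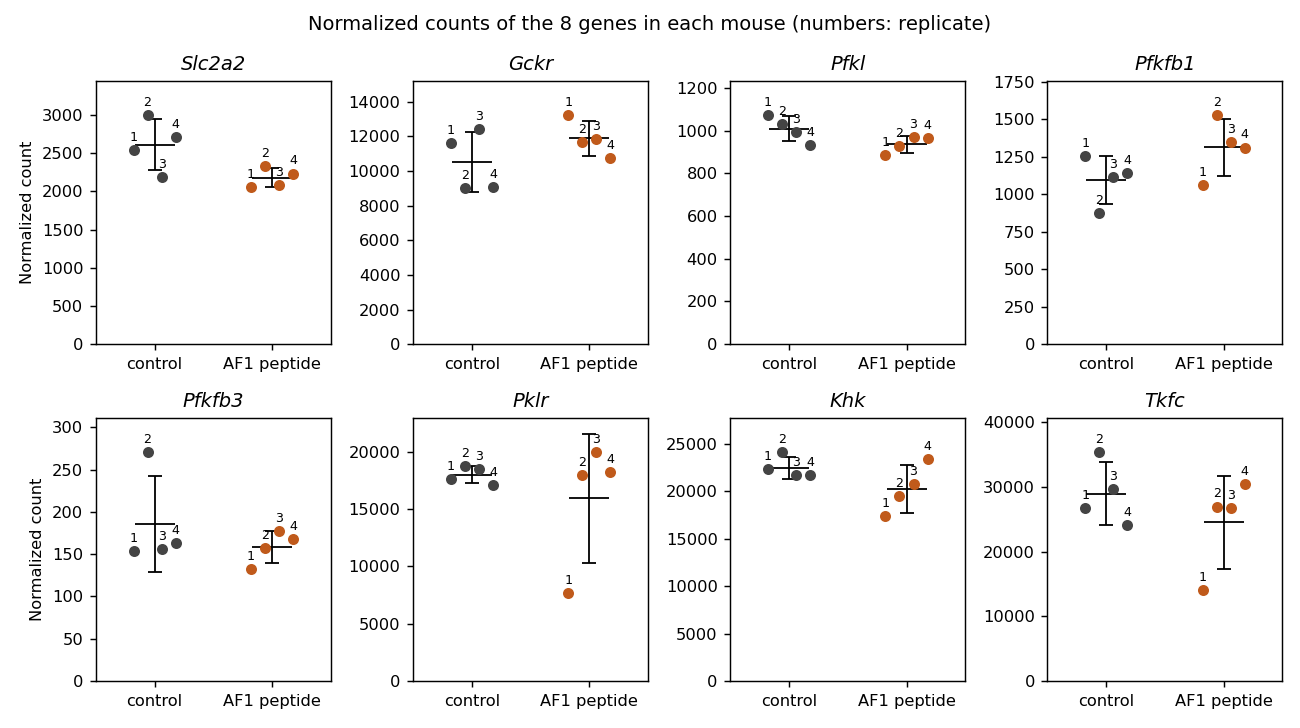
Normalized counts (linear axes from 0) of the 8 genes in each control and AF1 peptide-treated mouse, with the mean and SD of each group (n = 4) as bars and the replicate number beside each point. The groups overlap for every gene, and AF1 peptide replicate 1 lies far below the other mice for Pklr (7631) and Tkfc (14085).

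AF1 peptide replicate 1 was the lowest of the 8 mice for 6 of the 8 genes, Slc2a2, Pfkl, Pfkfb3, Pklr, Khk and Tkfc, and the highest for Gckr. Control replicate 2 was at the other end for 4 of them, highest for Slc2a2, Pfkfb3, Khk and Tkfc, and lowest for Gckr and Pfkfb1. These 2 mice therefore set the ends of most of the genes. Over all tested genes, AF1 peptide replicate 1 was the lowest in 23.4% and the highest in 25.9%. Control replicate 2 was the lowest in 13.8% and the highest in 14.4%. The part of the low macrophage sum and of the mitochondrial share of AF1 peptide replicate 1 in these values was not tested.

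**Figure D2:**
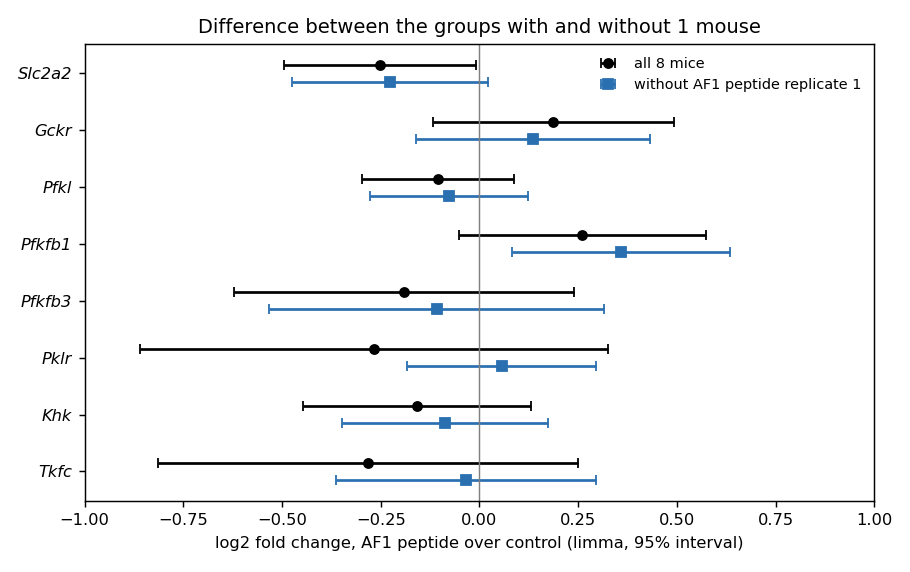
The log2 fold change (AF1 peptide over control) and its 95% interval from limma for the 8 genes, with all 8 mice (circles) and without AF1 peptide replicate 1 (squares). The interval of Slc2a2 leaves 0 out only with all mice and that of Pfkfb1 only without replicate 1, and the values of Pklr and Tkfc move to near 0.

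Levels per length are normalized counts divided by the length in kilobases of a gene's merged exons in GENCODE M21. On this scale the order in control mice was Khk (12518 ± 633), Tkfc (6272 ± 1048), Pklr (5556 ± 227), Gckr (2427 ± 405), Slc2a2 (454 ± 58.3), Pfkfb1 (273 ± 40.2), Pfkl (151 ± 8.78) and Pfkfb3 (24.6 ± 7.52), each as mean ± SD with n = 4. The order depends on these lengths, since by normalized count Tkfc was above Khk in control mice (means 28959 and 22495). Per length, Tkfc and Pklr overlapped in control mice, and every other pair of neighbours was separate. Over all 8 mice, Pklr and Gckr overlapped as well, and so did Slc2a2 and Pfkfb1. In AF1 peptide replicate 1, Gckr was above Pklr (3049 against 2358 per kilobase), the reverse of the other 7 mice.

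Some of the genes share short stretches of sequence with other genes, and some lie over other genes. At most 0.363% of the 50-base words of any of the 8 genes' transcripts occur in other genes, the highest being in Pfkfb3. Slc2a2, Pfkfb1, Pfkfb3, Pklr and Tkfc overlap other annotated genes, such as Hcn3 at Pklr and Ddb1 at Tkfc. Whether strand was used in counting is not given in the sources used here, so reads of such neighbours cannot be told apart from theirs. Among the relatives below, Pkm shares 25.8%, Pfkfb2 15.9% and Pfkm 8.83% of its words with other genes and is uncertain to that extent.

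The liver forms led each enzyme family per length. Pklr made up 95.5 to 97.9% of the pyruvate kinase signal in control and 95.1 to 97.9% in treated mice, with Pkm, the form of most other tissues, as the rest. Pfkl was 52.2 to 57.9% of phosphofructokinase in control mice and 56.5 to 58.2% in treated replicates 2 to 4, but 48.1% in replicate 1, the one mouse in which Pfkm, the muscle subunit, was the larger share. By normalized count Pfkl was above Pfkm in that mouse (884 against 464). The shares thus depend on the merged exon lengths, 6675 bases for Pfkl and 3340 for Pfkm, which may differ from those of the transcripts present. Pfkfb1 was 62.9 to 74.8% of the PFK-2/FBPase-2 genes in control and 62.7 to 78.1% in treated mice. In treated replicate 1, Pfkfb2, a form known from heart that liver also makes, held 31.1% against 14.3 to 21.4% in the other 7 mice. None of these shares separated the groups except that of Pfkp, the platelet subunit of phosphofructokinase, with replicate 1 left out. It was then 2.51 to 2.77% in treated and 1.77 to 2.25% in control mice. For comparison, 9.16% of single genes tested had groups without overlap in that setting.

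**Figure D3:**
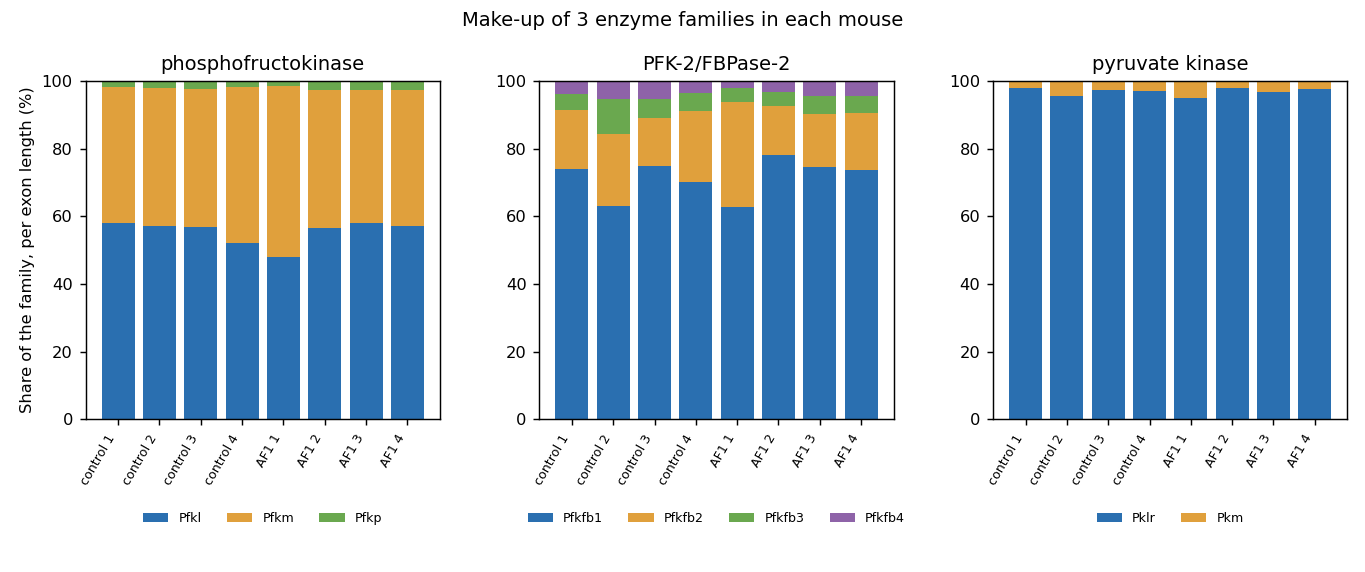
Shares (%) of the normalized counts per exon length held by each gene of the phosphofructokinase, PFK-2/FBPase-2 and pyruvate kinase families in each of the 8 mice, as stacked bars that start at 0. Pklr fills at least 95.1% of the pyruvate kinase bar in every mouse, and AF1 peptide replicate 1 has the largest Pfkm and Pfkfb2 shares.

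Hexokinases carry out the phosphorylation of glucose in most tissues. Hk2 was at 681 to 920 in control mice and at 319, 789, 1061 and 597 in treated mice, and Hk3, known from blood cells, at 130 to 175 and at 55.1, 137, 189 and 141. None of Hk1, Hk2, Hk3 and Hkdc1 passed the test, with log2 fold changes of -0.05, -0.29, -0.37 and -0.52, or 0.06, 0.04, -0.0030 and -0.32 without AF1 peptide replicate 1. For Hk3, the low replicate 1 is also the mouse with the low macrophage sum, whose part was not tested.

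Ratios of genes within a mouse do not depend on the scaling of libraries. Of 9 such ratios computed, none separated the groups with all mice. Pklr over Gckr was 1.49 to 2.08 in control mice, 1.53 to 1.69 in treated replicates 2 to 4 and 0.577 in replicate 1. Slc2a2 over Gckr was 0.177 to 0.333 in control and 0.156 to 0.207 in treated mice, and Khk over Tkfc 0.683 to 0.902 and 0.722 to 1.23. Fbp1 over Pfkl, the enzymes of the 2 directions of the same step, was 8.23 to 14.2 in control mice, 5.89 to 8.94 in treated replicates 2 to 4 and 29.6 in replicate 1. Pklr over Pfkl was 16.5 to 18.6 in control mice, 8.63 in replicate 1 and 18.9 to 20.6 in the other treated mice. Once replicate 1 was left out, it alone among the 9 ratios separated the groups. For comparison, 9.16% of single genes tested had groups without overlap in that setting.

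Beyond the 8 genes, a list of other sugar uptake, glycolysis and fructose genes held 44 symbols, of which 42 were in the table and 39 were tested. None of the 39 passed p under 0.05 with limma (against 6.19% of all genes), and their median log2 fold change was -0.07. Without AF1 peptide replicate 1 the median was -0.05. In that setting 1 of the 39, Ldha, passed p under 0.05 and the call, against 10.1% and 5.93% of all genes tested. Ldha, the lactate dehydrogenase subunit common in liver, came closest, with 7049 to 15930.5 in control mice and 11357, 7036, 6994 and 7360 in treated mice (log2 fold change -0.54, limma, Benjamini-Hochberg adjusted p = 0.763). Treated replicates 2 to 4 were close together near the lowest control mouse. Without replicate 1 the difference was -0.70, and with all mice Ldha passed an unadjusted p of 0.05 with edgeR, DESeq2, no filter and the replicate block. Akr1b3, aldose reductase of the polyol route to fructose, was at 146 to 166 in control and 89.5 to 154 in treated mice (-0.36, not past the test, and -0.35 without replicate 1).

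The genes of pyruvate's fate, which carry pyruvate into mitochondria or out of the cell, were 16 tested. Of these, 3 had a lower and 1 a higher level at a limma p under 0.05, against 6.19% of all genes, and 2 passed the call, both lower, against 3.69%, with a list median of -0.22. Without AF1 peptide replicate 1, 5 had p under 0.05, against 10.1% of all genes tested, and none passed the call, against 5.93%. The median was then -0.23. Slc16a1, the monocarboxylate carrier MCT1, had 901 to 1159 in control and 433, 769, 717 and 935 in treated mice (-0.56, or -0.34 without replicate 1, limma, Benjamini-Hochberg adjusted p = 0.763). Dlat, a subunit of pyruvate dehydrogenase, had 983 to 1318 in control and 712 to 1090 in treated mice (-0.38, or -0.27 without replicate 1). Mpc1, a subunit of the mitochondrial pyruvate carrier, was lower by less than the fold threshold (-0.27, or -0.29 without replicate 1), and Pdk2, a kinase that switches pyruvate dehydrogenase off, was the higher one (0.32, or 0.22 and not past p without replicate 1), named here after its values were seen.

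In the opposite direction, of 5 gluconeogenesis genes tested 1 had a limma p under 0.05, against 6.19% of all genes tested. Pcx, pyruvate carboxylase, was at 12289 to 14148 in control and 10005 to 11722 in treated mice, without overlap, as held for 3.90% of all genes tested. Its difference was -0.29 (limma, Benjamini-Hochberg adjusted p = 0.763), or -0.28 without replicate 1, below the fold threshold. Fbp1, fructose 1,6-bisphosphatase, was 26130 in AF1 peptide replicate 1, 5703 to 8635 in the other treated mice and 8176 to 13288 in control mice (-0.18, limma, Benjamini-Hochberg adjusted p = 0.935). Without replicate 1 it was -0.65, past the call. G6pc, glucose 6-phosphatase, was 11661 in replicate 1 and 3216 to 6502 in the other treated mice, against 4188 to 9263 in control mice (-0.30, limma, Benjamini-Hochberg adjusted p = 0.871), and -0.63 without replicate 1, also past the call. Without that mouse, 2 of the 5 genes thus passed the call, against 5.93% of all genes tested. Replicate 1 was the highest of the 8 mice in 4 of these 5 genes, against 25.9% of all genes tested. It was the lowest in 8 of 10 genes of a list known to be high after feeding, against 23.4%. In a list of 12 genes known to be high in fasting it was the highest in 4 and the lowest in 5.

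Among 16 regulators of sugar and insulin response, 1 passed the call, against 3.69% of all genes tested. Groups without overlap were found for 2 of them, against 3.90%. Foxo1, the insulin-restrained activator of gluconeogenesis genes, was at 485 to 525 in control and at 932, 658, 660 and 608 in treated mice, without overlap (0.48, limma, Benjamini-Hochberg adjusted p = 0.763), and 0.34 without replicate 1, which is under the fold threshold and ends the call. With libraries scaled to equal totals Foxo1 was at 0.39 and did not pass p under 0.05, which happened in 1 of 20 alternatives. Mlx, the partner of ChREBP, was at 172 to 242 in control and 146 to 181 in treated mice (-0.37). It was past an unadjusted limma p of 0.05 but with groups that overlap, and at -0.44, past the call, without replicate 1. In that setting 1 of the 16 was called, against 5.93% of all genes tested. In the feeding list, 2 of 10 genes tested passed the call, both lower and without overlap, against 3.69% and 3.90% of all genes tested. These were Fasn, fatty acid synthase (-0.47), and Gpam, the first enzyme of glycerolipid synthesis (-0.57). In both, replicate 1 was the lowest mouse, and without it the differences were -0.28 and -0.26, under the fold threshold, so both calls end. Gpam also lost p under 0.05 in 11 of 20 alternatives and Fasn in 4.

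**Figure D4:**
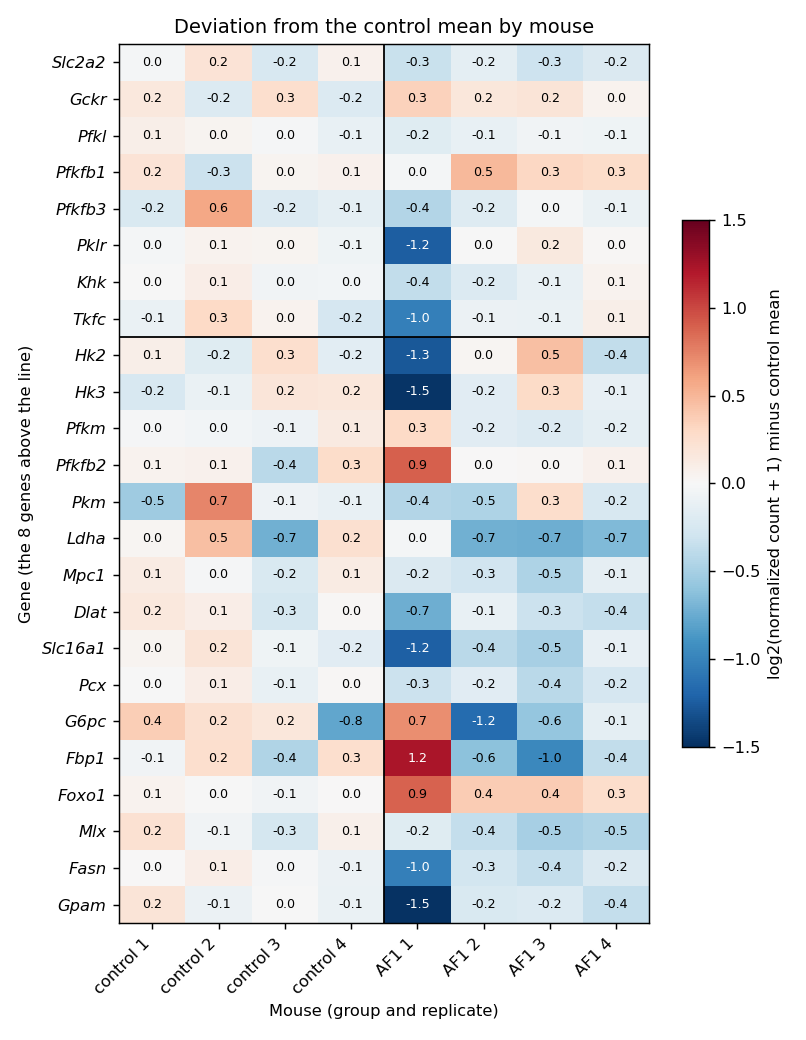
Deviation of log2(normalized count + 1) from the control mean for each mouse, for the 8 genes (above the line) and the related genes named in the text. Colours run from -1.5 to 1.5. AF1 peptide replicate 1 has the deepest values among the 8 genes (-1.2 for Pklr and -1.0 for Tkfc).

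The patterns most like those of 2 of the genes were sought by the mean absolute difference of log2 deviations over the 8 mice, among the 12442 genes whose normalized count averaged 50 or more. For Slc2a2, the gene with the smallest p, the nearest were Pgp, Dnajc10, Atl3, Sec13 and Chdh, at 0.047 to 0.051, where the median gene was at 0.219. For Pklr, the gene with the largest spread, the nearest were Tspan17, Hmgcs1, Tmc6, Pilra and Ddo, at 0.051 to 0.075, with a median of 0.322. The nearest of 12442 genes lie below the median by selection, so the median is no test of likeness. In each of the genes nearest to Pklr, AF1 peptide replicate 1 was below every other mouse, as in Hmgcs1 with 2287 against 4673 to 5975. Shared control was not tested.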

How the data were processed

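TRIzol-extracted liver RNA from 8 male db/db mice was made into libraries with a stranded mRNA kit. Trim Galore 0.6.7, HISAT2 and SAMtools 1.17 and the build mm39 are named in the submitters' processing notes, and reads were counted per gene with GenomicAlignments. The annotation and the use of strand in counting are not given in the sources used here. The authors deposited normalized counts (unit: signal), in which each read count was divided by the size factor of its library, equal to that of the median-of-ratios method. Whole reads were recovered for 100% of 172256 values (tolerance 0.01 read) and gave 23031880 to 45117528 reads per mouse. Intervals of reads cover counting error only.

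Groups and replicate numbers came from the labels, which call the mice biological replicates, so p-values measure the spread between mice. Replicates of a group differed by a chi-square of 14.6 to 312 per degree of freedom, so none was a duplicate. The log2(normalized count + 1) of the 15989 genes whose normalized count averaged 10 or more was compared with limma 3.58.1 (R 4.3.3, variances following the intensity trend), with Benjamini-Hochberg adjustment over all of them. A call is an unadjusted p under 0.05 with a change of over 1.3-fold. Single genes were also compared by two-sided exact permutation tests (scipy 1.17.1). limma was tested on simulated counts of 15827 genes with 193 changed 2-fold. It gave p under 0.05 to 93.3% of the changed and 4.93% of the unchanged genes. Changes of less than 2-fold, such as those near the 1.3-fold threshold, were not simulated, so the 93.3% does not apply to them.

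The 8 genes and all lists were chosen with earlier results of these data known. Genes of other lists are named if called, if among the 3 smallest p values of 6 lists, or if of the same enzyme family as one of the 8, and some genes that this rule and the lists cover are not reported here or counted in the lists. The likeness searches took the gene with the smallest p and the one with the largest spread. The promoter patterns were chosen after the sequences were seen, without a rule fixed beforehand. Alternatives were other pseudocounts, filters, scalings and variance models, a block for the replicate number, each mouse left out in turn, and tests of the recovered reads with DESeq2 1.42.0 and edgeR 4.0.16. Exon lengths and shared 50-base words came from GENCODE M21 by gene symbol. No column was left out.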

Additional observations from a re-analysis of the deposited data

Results flagged for a closer look

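In groups of 4 mice, 13 of 94 groups examined had 1 mouse whose gap to the nearest other took up more of the group's range than Dixon's 95% value for groups of that size. Chance flags about 1 in 20 groups, here about 4.7. Of the 13, 9 were AF1 peptide replicate 1. Among the 8 genes, Pklr was flagged there, with 7631 against 17930 to 19958 (gap 0.836 of the range), and Pfkfb3 was flagged in control replicate 2, with 271 against 153 to 163 (0.915).

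Related genes in which AF1 peptide replicate 1 was the high mouse were Foxo1, with 932 against 608 to 660 (0.840), Ldha, with 11357 against 6994 to 7360 (0.916), and Fbp1, with 26130 against 5703 to 8635 (0.857). The muscle subunit gene Pfkm had 464 against 328 to 339 (0.919), and Pfkfb2 had 953 against 511 to 535 (0.946). Slc2a4, the insulin-sensitive glucose carrier of muscle and fat, was high in replicate 1 of both groups, with 286 against 50.5 to 88.1 in treated mice (0.841) and 119 against 50.2 to 58.6 in control mice (0.879). Hkdc1 was high in control replicate 2, with 35.5 against 9.73 to 14.0 (0.834). The macrophage marker sum of AF1 peptide replicate 1 was 2279 against 5156 to 5616 (0.862), and its red cell sum was 27116 against 49150 to 51938 (0.888). The red cell sum of control replicate 4 was 123405 against 34152 to 44645 (0.882).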

How the results depend on the processing

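With limma, 286 genes were called higher and 304 lower, 990 had an unadjusted p under 0.05 and none an adjusted one, while DESeq2 gave 3 genes an adjusted p under 0.05, none of them among the 8. The called counts were 435 and 459 with no filter, 122 and 602 with libraries scaled to equal totals (16.9% higher against 48.5%), and 506 and 484 with no fold threshold, under which 1 of the 8 genes, Slc2a2, counted. With each gene's own variance 197 were called lower. Leaving out 1 mouse gave 198 to 457 higher and 173 to 491 lower, with 0 of the 8 genes called each time and 0 to 1 without overlap, namely Slc2a2 without control replicate 3, Pfkl without control replicate 4, Pfkfb1 without AF1 peptide replicate 1 and Khk without AF1 peptide replicate 4, settings in which 8.85%, 6.58%, 9.16% and 8.47% of all tested genes had groups without overlap. With 1 mouse left out, the log2 fold change crossed 0 for Pfkfb3 (-0.27 to 0.0038, without control replicate 2), Pklr (-0.41 to 0.056, without AF1 peptide replicate 1), Hk1 (-0.13 to 0.063, also positive without control replicate 2), Hk2 (-0.54 to 0.038) and Pfkfb4 (-0.30 to 0.11), positive without AF1 peptide replicate 1, Pkm (-0.40 to 0.026, without control replicate 2) and Fbp1 (-0.65 to 0.080, without AF1 peptide replicate 3). Fbp1 was also positive with edgeR (0.064) and DESeq2 (0.069). Under equal totals the fold changes of the 8 genes shifted down by about 0.09, to -0.34 for Slc2a2 and 0.10 for Gckr. Of 160 values of the 8 genes under alternatives, 150 kept their direction and side of p 0.05, and 7 of the others were Slc2a2 values with p over 0.05, whose adjusted p ranged from 0.523 to 0.994. The causes were not tested. Correlations of same-numbered mice were 0.235, 0.0238, 0.216 and -0.0640, against -0.272 to 0.137 for differently numbered pairs. With 4 mice a group, these values do not settle whether the replicate number pairs the mice. As a block, the replicate number gave 341 higher and 392 lower genes and 0 of the 8 called. With it, 1244 genes had an unadjusted limma p under 0.05. Depth limits Pfkfb3 most, and 4 mice a group allow no exact p below 0.0286.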
